A study of Mus musculus with 18 samples.

Results

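Cortical endothelial cells labelled MCAO-Ezh2 ECKO (3 libraries) were compared with those of sham mice (3 libraries), all ipsilateral and chosen by their titles, so that the comparison holds 6 of the 18 libraries in the series. MCAO, occlusion of the middle cerebral artery, models ischaemic stroke by surgery, and the sham mice serve as its controls. ECKO stands for an endothelial cell knockout, which here means floxed Ezh2 alleles (Ezh2lox/lox) with a tamoxifen-inducible Cre recombinase driven by the Cdh5 promoter (Cdh5CreERT2). The sham mice carried the genotype label WT, and the labels do not state whether they had Cre or floxed alleles. Both groups received tamoxifen at 75 mg per kg in 5 doses, so the drug is shared by treated and control mice. On day 7 of stroke, cells that carried CD31 but neither CD41 nor CD45 were sorted, and their mRNA was amplified with a SMART-Seq kit and sequenced as read pairs. Other groups serve as reference values or for tests of a difference: 3 sham contralateral libraries, 3 ipsilateral libraries of occluded mice labelled WT (MCAO) and 3 of occluded mice labelled Hdac2 ECKO, which carry floxed alleles of a histone deacetylase gene. The comparison with sham contains the occlusion, the label and the genotype together, and these cannot be told apart within it. The labels do not say whether the libraries of a group came from separate mice, so p-values measure a spread between libraries, which may be technical. For single genes that spread was estimated over all 18 libraries, those of the MCAO contralateral side included.

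Ezh2 is the methyltransferase of Polycomb repressive complex 2 (PRC2), which places trimethyl marks on lysine 27 of histone H3 and keeps developmental genes silent. Brain endothelium forms the blood-brain barrier through tight junctions and transporters, and its barrier state is maintained by Wnt ligands that act through Frizzled receptors and beta-catenin. After a stroke, endothelial cells near the lesion are known to turn on stress, inflammatory and angiogenic genes.

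Total counts were 26343356 to 38055895 in the group labelled Ezh2 ECKO and 32563872 to 39071573 in the sham libraries. Levels are given as CPM, counts scaled to 1e6 per library by the TMM-scaled total, and changes as log2 fold changes with standard errors (SE) from edgeR's quasi-likelihood F-test. Called genes have a Benjamini-Hochberg adjusted p under 0.05 over 17094 tested genes. The correlation of log2 levels ran from 0.898 to 0.932 among the libraries labelled Ezh2 ECKO and from 0.969 to 0.985 among the sham libraries. Replicate 2 labelled Ezh2 ECKO stood apart: olfactory and vomeronasal receptor genes, 1466 genes not known to act in endothelium, took 2083 CPM of its unscaled total, against 267.8 and 600.1 CPM in the other libraries of that label and 285.1 to 716.3 CPM in sham. The level of each library, relative to the mean of all 18, also leaned on GC content, with Spearman rho across 7814 genes of −0.226 to −0.338 in the group labelled Ezh2 ECKO and of −0.421 to 0.428 in sham.

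Ezh2 itself (chromosome 6, 47530139 to 47595341, minus strand, build mm10) checked the label first. It stood at 12.0, 19.7 and 8.41 CPM in the group labelled Ezh2 ECKO and at 13.1, 6.48 and 6.99 CPM in sham. The groups overlapped, and the label's direction was not seen, with a log2 difference of 0.59 ± 0.86 (SE, adjusted p 0.943). The value covers the whole gene, so loss of the floxed exons alone could not be read from it. The MCAO libraries held 4.45, 7.02 and 7.85 CPM, all below the libraries labelled Ezh2 ECKO, with a log2 difference of 1.05 ± 0.86 that was not called (SE, adjusted p 0.485). For these reasons the groups are called by their labels throughout.

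Only 7 of 17094 genes (0.041%) were called between the libraries labelled Ezh2 ECKO and sham. The 4 that fell were adult globin genes (alpha genes Hba-a1 and Hba-a2, beta genes Hbb-bs and Hbb-bt), and the 3 that rose were 3830403N18Rik, Gm10320 and Pmaip1. An unadjusted p under 0.05 was reached by 1115 genes (6.52%), of which 451 (2.64%) stood higher and 664 (3.88%) lower. The log2 difference was above 0 for 56.1% of genes, and the groups did not overlap for 13.7% (5.55% higher, 8.13% lower). Of 7629 genes whose mean reached 10 CPM, 91.9% lay within 1 log2 unit of sham, 284 lay beyond 1 unit above and 332 beyond 1 unit below, at a median SE of 0.46. The median log2 difference over all genes was 0.13, and it moved to 0.27 with RLE scaling, so list medians below are read against that of all genes. DESeq2 called 189 genes on the same counts, 65 higher and 124 lower, and these included the 7.

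**Figure D1:**
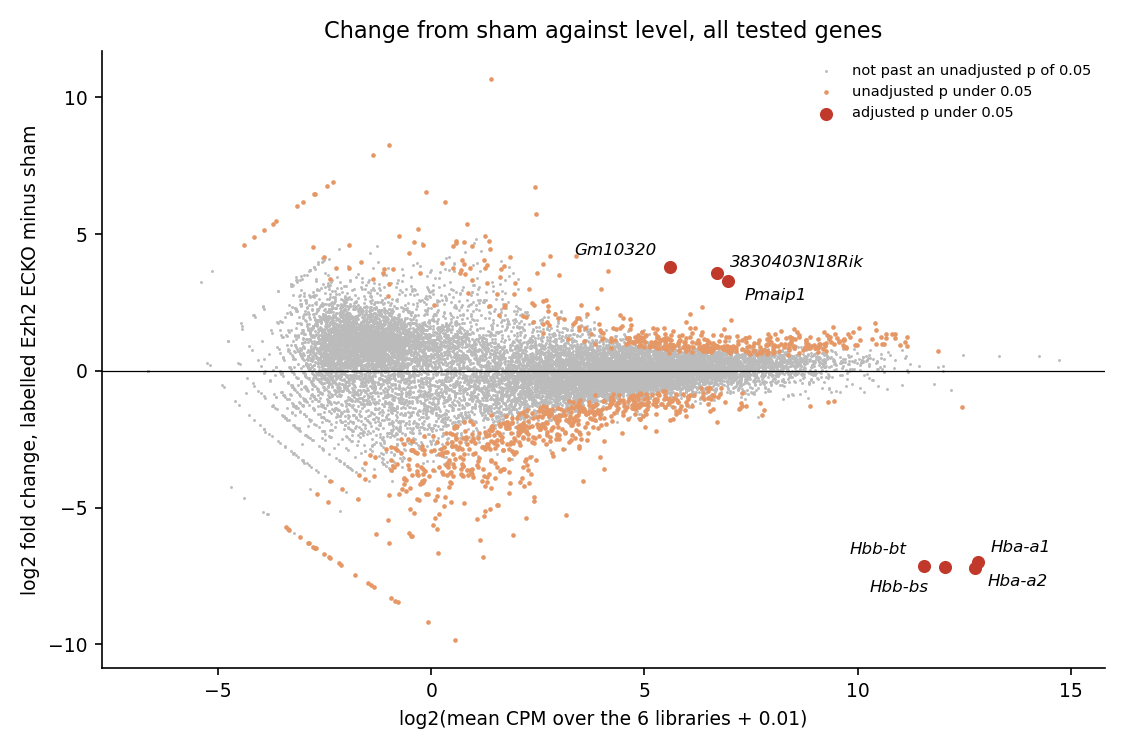
Each point is 1 of the 17094 tested genes, placed by its log2 mean level over the 6 libraries (horizontal axis) and its log2 fold change, labelled Ezh2 ECKO minus sham (vertical axis). Red marks the 7 called genes, with the globin genes near −7 at high levels and the other called genes between 3.28 and 3.79. Orange marks genes with an unadjusted p under 0.05 that did not pass.

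Globins are the protein chains of haemoglobin, made by red blood cells and their precursors: Hba-a1 and Hba-a2 encode alpha chains and Hbb-bs and Hbb-bt beta chains. Because these genes moved together, the 120 bases before each RefSeq start (build GRCm38.p6) are shown, read 5′ to 3′ on the gene's strand, with 3 motifs known from globin promoters in capitals. They are the CACCC box (letters CACCC), the CCAAT box (letters CCAAT) and the TATA box (letters ATATAA).
Hba-a1 (chr11:32283552-32283671, plus strand): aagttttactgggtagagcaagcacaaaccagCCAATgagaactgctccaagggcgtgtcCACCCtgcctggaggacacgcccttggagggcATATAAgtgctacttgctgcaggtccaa
Hba-a2 (chr11:32296372-32296491, plus strand): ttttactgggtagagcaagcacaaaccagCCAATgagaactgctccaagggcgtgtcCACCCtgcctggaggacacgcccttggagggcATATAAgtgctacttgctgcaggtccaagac
Hbb-bs (chr7:103827929-103828048, minus strand): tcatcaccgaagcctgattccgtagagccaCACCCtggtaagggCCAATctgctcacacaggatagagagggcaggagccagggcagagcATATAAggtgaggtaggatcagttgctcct
Hbb-bt (chr7:103813924-103814043, minus strand): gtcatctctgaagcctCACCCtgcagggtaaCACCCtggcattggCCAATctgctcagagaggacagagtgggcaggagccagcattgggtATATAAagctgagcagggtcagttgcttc
All 4 windows hold the 3 motifs on the gene's strand, as do 0.0847% of 16526 promoter windows of the same length. Taken alone, on the gene's strand CACCC was found in 17.3% of those windows, the letters CCAAT in 12.9% and the letters ATATAA in 3.09%, and on either strand in 33%, 24.1% and 4.3%. The motifs were chosen because globin promoters are known to hold them, so their presence in these windows was foreseen. A match of letters is a description and not evidence of binding or of shared regulation. The pair Hba-a1 and Hba-a2 was identical at 428 of 429 bases of the longest open reading frame and the pair Hbb-bs and Hbb-bt at 443 of 444. Reads can therefore be split between the copies of a pair, and the value of a single copy is less certain than the sum.

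The globin sum shows the difference most plainly. The 4 genes took 653.4, 93.2 and 192.1 CPM of the unscaled total in replicates 1, 2 and 3 labelled Ezh2 ECKO, and 73200, 24440 and 56710 CPM in those of sham. The groups did not overlap, and the mean in the libraries labelled Ezh2 ECKO was 0.00608 of the sham mean. The 95% Wilson intervals, which cover counting error only, were 645.3 to 661.6 CPM for the highest library labelled Ezh2 ECKO and 24390 to 24490 CPM for the lowest sham library. The exact two-sided permutation p was 0.1, the smallest that 3 against 3 allows (0.286 adjusted over 20 summed lists). Of the other groups, 3 were summed and held 37850 to 57770 CPM (MCAO ipsilateral), 54050 to 199500 CPM (labelled Hdac2 ECKO) and 72720 to 112200 CPM (sham contralateral), all above the libraries labelled Ezh2 ECKO.

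Hba-a2 stood at 192.1, 27.9 and 61.0 CPM in the group labelled Ezh2 ECKO and at 18300, 5513 and 17450 CPM in sham. The log2 difference was −7.20 ± 0.86 (SE, edgeR's adjusted p 0.000625). Hba-a1 (chromosome 11, 32283511 to 32284465) stood at 231.7, 27.1 and 77.7 CPM against 19150, 5739 and 18250 CPM, or −7.00 ± 0.88 (adjusted p 0.00066). In every library labelled Ezh2 ECKO both alpha genes were below the lowest sham library, and replicate 2 was the lowest of all. Hbb-bs (chromosome 7, 103826534 to 103828096) had 138.9, 8.42 and 26.9 CPM against 12590, 4631 and 7988 CPM, or −7.18 ± 1.00 (adjusted p 0.00229). Hbb-bt had 107.8, 6.46 and 13.4 CPM against 8942, 3334 and 5731 CPM, or −7.14 ± 1.03 (adjusted p 0.00312). The beta genes followed the same order of libraries as the alpha genes, with replicate 1 labelled Ezh2 ECKO the highest of its group. The alpha genes were called under all 21 alternatives that kept globins, and the beta genes under 20, with an adjusted p of 0.0513 without replicate 3 labelled Ezh2 ECKO.

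The remaining red cell markers pointed the same way at lower levels, but fell by much less as a sum. The 5 tested summed to a mean of 18.9 CPM of the unscaled total against 66.5 CPM in sham, without overlap. That is 0.284 of the sham mean, beside 0.00608 for the globin genes. Alas2, the first enzyme of haem synthesis in red cell precursors, stood at 0.378, 0.256 and 0 CPM against 16.7, 4.53 and 5.97 CPM. It did not pass over all genes (edgeR, adjusted p 0.333). Of the 5 red cell markers tested besides the globin genes, 0 were above sham, 3 had an unadjusted p under 0.05 and the same 3 did not overlap between the groups. Over all genes the shares in that direction were 3.88% and 8.13%. The log2 differences of Bpgm and Slc4a1 changed sign over the alternatives (−1.02 to 0.01 and −2.80 to 0.30). In bulk libraries such as these, fewer cells of a type and less RNA per cell cannot be told apart. The sort keeps cells with CD31, which mature red blood cells lack; where the globin reads came from was not tested.

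The genes that rose were Pmaip1, 3830403N18Rik and Gm10320. Pmaip1 (chromosome 18, 66458533 to 66465565, plus strand) encodes Noxa, a BH3-only protein that promotes apoptosis. It stood at 155.1, 224.2 and 295.8 CPM in the group labelled Ezh2 ECKO and at 23.5, 26.6 and 19.4 CPM in sham, or 3.28 ± 0.58 on the log2 scale (SE, edgeR's adjusted p 0.0295). Its lowest library labelled Ezh2 ECKO was far above its highest sham library. The MCAO libraries lay between, at a mean of 97.6 ± 38.5 CPM (SD, n = 3), and the difference from them was not called (log2 1.20, adjusted p 0.225).

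The X-linked gene 3830403N18Rik (56136572 to 56153498, plus strand) stood at 214.1, 158.4 and 207.6 CPM against 16.9, 19.7 and 12.4 CPM in sham. The groups were well apart, at a log2 difference of 3.57 ± 0.58 (adjusted p 0.0153). It was also called against the MCAO libraries (mean 29.9 CPM, log2 2.69, adjusted p 0.0291), but not against those labelled Hdac2 ECKO (mean 100.7 CPM, adjusted p 0.54). The predicted gene Gm10320 (chromosome 13, 98489348 to 98492001, minus strand) stood at 106.9, 56.9 and 109.4 CPM against 6.72, 4.43 and 8.56 CPM, or 3.79 ± 0.67 (adjusted p 0.0295). MCAO libraries held it at 89.6 ± 44.6 CPM (SD, n = 3), and their difference from the libraries labelled Ezh2 ECKO was 0.02 on the log2 scale (adjusted p 0.986).

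These genes kept their direction under all 22 alternatives but were called under 15. Without any single sham library none was called (adjusted p 0.119 to 0.292), and the same held without replicate 3 labelled Ezh2 ECKO (0.0513 for 3830403N18Rik, 0.112 for Gm10320 and 0.163 for Pmaip1). Leaving out replicate 1 labelled Ezh2 ECKO ended the call of Gm10320 and leaving out replicate 2 that of Pmaip1. With the globin genes removed from the table before scaling, all 3 had an adjusted p of 0.07 and edgeR called 0 genes, while 492 higher and 616 lower genes kept an unadjusted p under 0.05. With the trend on GC content removed, Gm10320 stayed called and the other genes did not. With sham contralateral libraries as the control, Pmaip1 stayed called and the other genes did not (adjusted p 0.141 for 3830403N18Rik and 0.12 for Gm10320).

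**Figure D2:**
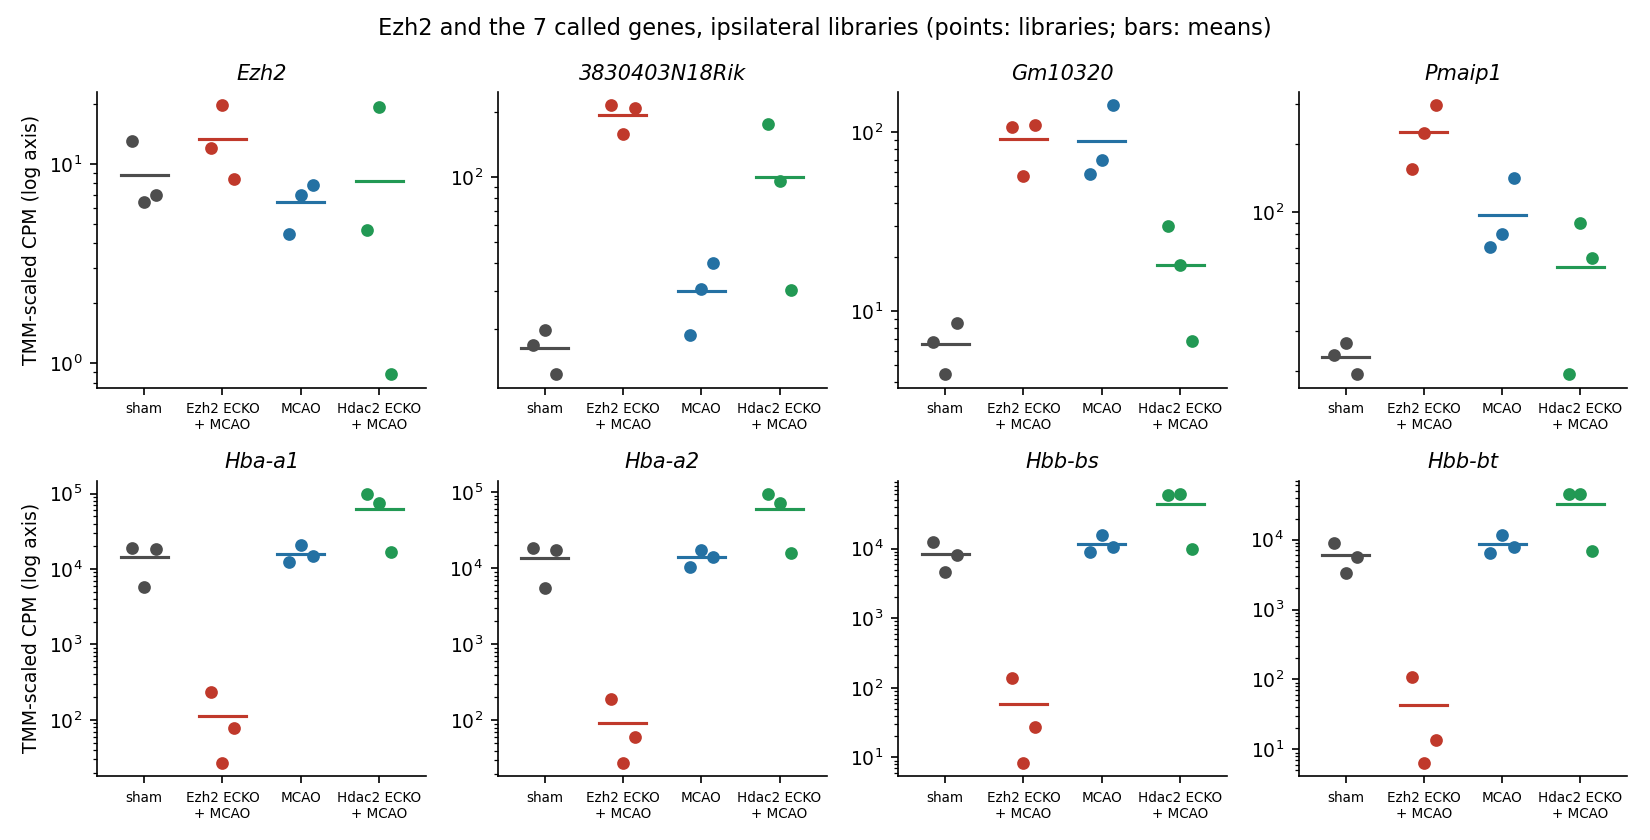
TMM-scaled CPM (log axis) of Ezh2 and the 7 called genes in the ipsilateral libraries of sham, labelled Ezh2 ECKO, MCAO and labelled Hdac2 ECKO mice, with 1 point per library and a bar at the group mean. Ezh2 overlaps between the libraries labelled Ezh2 ECKO and sham, the globin genes are low only in the 3 libraries labelled Ezh2 ECKO among those drawn, and MCAO libraries reach the same level of Gm10320.

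Genes next in rank did not pass, and are given as values. Clec1a, a C-type lectin receptor of endothelial and myeloid cells, stood at 3.10, 3.61 and 2.68 CPM against 24.4, 41.6 and 17.1 CPM in sham (log2 −3.14 ± 0.60, adjusted p 0.07). Utp15, a factor in ribosomal RNA processing, stood at 1.08, 2.62 and 0.783 CPM against 12.5, 16.4 and 10.2 CPM (log2 −3.12 ± 0.64, adjusted p 0.116). Tm6sf2, known for lipoprotein secretion in liver, stood at 0.108, 0.114 and 0.0559 CPM against 3.01, 2.84 and 2.09 CPM (adjusted p 0.0707). None of these 3 overlapped between the groups, and Tm6sf2 was called against both MCAO (log2 −6.69, adjusted p 0.0038) and the libraries labelled Hdac2 ECKO (log2 −6.65, adjusted p 0.00411).

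Lipt2, an octanoyltransferase of mitochondrial lipoate synthesis, had 0 counts in each of the 3 libraries with the Ezh2 ECKO label, against 2.27, 1.57 and 1.82 CPM in sham. Set against a floor of 3 counts per library it was at least 22.6-fold lower (adjusted p 0.0844). Hspb2, a small heat shock protein gene of muscle, also had 0 counts, against 3.30, 1.67 and 3.85 CPM in sham, at least 35.3-fold lower (adjusted p 0.399). Its deposited span (chromosome 9, 50751078 to 50752354, minus strand) overlaps that of Cryab on the other strand (50751325 to 50756636), which stood at 1.40, 0.0854 and 0.112 CPM against 8.02, 6.79 and 9.66 CPM, and reads of the pair may not be separable. The globin-like gene Hbq1a, in the alpha globin cluster, had 0 counts against 1.59, 1.24 and 0.589 CPM, at least 13.7-fold lower (adjusted p 0.528).

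On the higher side, among genes with a mean count of at least 50 in a group and no overlap, the smallest unadjusted p-values after the called genes belonged to Gm17655, Gm20594, Rbis, Rpl22l1 and Tspan12. Rbis, a ribosome biogenesis factor, stood at 1853, 921.7 and 1917 CPM against 400.8, 589.3 and 588.7 CPM (log2 1.57 ± 0.37, adjusted p 0.314). Rpl22l1, a paralogue of a ribosomal protein gene, stood at 480.9, 266.8 and 544.9 CPM against 119.8, 171.9 and 179.1 CPM (log2 1.46 ± 0.35, adjusted p 0.316). In both, replicate 2 labelled Ezh2 ECKO was the lowest of its group and still above sham. Gm17655 and Gm20594 had log2 differences of 1.90 and 1.93 (adjusted p 0.213 and 0.25). The largest fold changes upward, of Npw, Ifi202b, Aif1 and Grem1, came from genes with a mean of at most 0.178 CPM in sham, spread widely among the libraries labelled Ezh2 ECKO (for Ifi202b 24.9, 6.57 and 0.587 CPM), and had adjusted p-values from 0.451 to 0.602.

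Transcripts of Wnt receptors and ligand partners had a list median close to sham, and signalling itself was not measured. Of 16 tested Wnt receptors and ligand partners, 8 were above sham and 8 not, with a median log2 difference of 0.01 (−0.24 to 0.25 over the alternatives) beside 0.13 for all genes. Both members with an unadjusted p under 0.05 stood higher, and 0 stood lower. Tspan12, the tetraspanin that strengthens Norrin signalling through Frizzled-4, stood at 376.3, 228.7 and 429.6 CPM against 131.5, 153.1 and 156.4 CPM (log2 1.23 ± 0.31, adjusted p 0.381). Reck, which with Gpr124 presents Wnt7 ligands to Frizzled, stood at 192.5, 127.3 and 206.7 CPM against 87.1, 123.4 and 110.4 CPM (log2 0.71 ± 0.32, adjusted p 0.742). Every library labelled Ezh2 ECKO exceeded every sham library for both genes, narrowly so for Reck in replicate 2. Both were called against the MCAO libraries, with log2 differences of 1.39 for Tspan12 (MCAO mean 131.2 CPM, adjusted p 0.0356) and 1.35 for Reck (68.8 CPM, adjusted p 0.0434), under 12 and 11 of 20 alternatives.

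The 29 tested genes of the beta-catenin complex and its targets had a median of 0.06, and 1 stood higher and 1 lower at an unadjusted p under 0.05. Lef1, a DNA-binding partner of beta-catenin, stood at 1527, 388.3 and 1199 CPM against 406.6, 482.5 and 569.9 CPM, so that replicate 2 lay below every sham library and the others above (log2 1.09 ± 0.46, adjusted p 0.697). Tcf7l1, a repressor of the same family, stood at 1.08, 0.854 and 0.811 CPM against 8.60, 2.86 and 4.23 CPM (log2 −2.51 ± 1.04, adjusted p 0.681). Ctnnb1, which encodes beta-catenin, was 1883, 1287 and 2032 CPM against 1007, 1357 and 1425 CPM, overlapping sham (log2 0.46 ± 0.31), and it was called against the MCAO mean of 642.5 CPM (log2 1.43, adjusted p 0.0324).

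Junction genes gave no call: of 20 tested, 0 had an unadjusted p under 0.05 in either direction, and their median was 0.03. Tjp1, the scaffold ZO-1 of tight junctions, had the second smallest p of the list, at 688.3, 571.3 and 657.1 CPM against 418.8, 504 and 475.8 CPM (log2 0.45 ± 0.31, adjusted p 0.908). Pecam1, which encodes the sorting marker CD31, stood at 276.2, 198.2 and 274.6 CPM against 452.8, 242.5 and 406.2 CPM, with overlap (log2 −0.56 ± 0.31, adjusted p 0.832). At a median SE of 0.46 for well-measured genes, changes well beyond 1 log2 unit could also go uncalled at this number of libraries. The smallest called log2 change from sham was 3.28, of Pmaip1, so genes without a call were not shown to be unchanged.

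Of 29 barrier transporter genes, 0 stood higher and 1 lower at an unadjusted p under 0.05, with a median of 0.10. That gene was Bsg, basigin, a membrane glycoprotein that accompanies monocarboxylate transporters, at 3876, 2486 and 3157 CPM against 11550, 4378 and 7839 CPM (log2 −1.32 ± 0.62, adjusted p 0.758). Its libraries labelled Ezh2 ECKO lay below every sham library, while the MCAO mean was 22800 CPM, and the difference from MCAO was called (log2 −2.84, adjusted p 0.0379). Slc39a8, a zinc and manganese importer, stood at 226.8, 146.8 and 243.8 CPM against 96.1, 145.7 and 133.7 CPM (log2 0.72 ± 0.35, adjusted p 0.768). Plvap, the protein of fenestral diaphragms and a marker of leaky vessels, was low in both groups, at 0.539, 0.171 and 0.671 CPM against 12.9, 1.81 and 2.62 CPM (adjusted p 0.614). It was the 1 of 14 vesicle and caveola genes with an unadjusted p under 0.05.

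Arterial endothelial genes had the lowest median of the endothelial lists, −0.54, and stayed below 0 under all 22 alternatives (−0.99 to −0.08). Of 16 tested, 0 stood higher and 2 lower at an unadjusted p under 0.05 (2.64% and 3.88% of all genes), and 0 were called. Alpl, tissue-nonspecific alkaline phosphatase, stood at 23.1, 23.9 and 17.1 CPM against 118.5, 46.7 and 60.0 CPM (log2 −1.81 ± 0.38, adjusted p 0.125). Gkn3, a secreted protein typical of brain arterial endothelium, stood at 164.7, 64.5 and 89.5 CPM against 489.1, 229.8 and 260.7 CPM (log2 −1.62 ± 0.42, adjusted p 0.394). Neither gene overlapped between the groups, and both were called against the libraries labelled Hdac2 ECKO (Alpl log2 −2.03, adjusted p 0.03; Gkn3 log2 −2.37, adjusted p 0.0296). Alpl was also called against MCAO (log2 −1.67, adjusted p 0.0361), where Gkn3 was not (adjusted p 0.325). Against sham, 2 of 22 alternatives called Alpl (adjusted p 0.00217 to 1 over all of them).

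Of the lists of angiogenic and vessel-stabilising receptors, 0 genes were called, and single members are given as values. Of 27 VEGF receptor and tip cell genes, 2 stood higher and 2 lower at an unadjusted p under 0.05 (2.64% and 3.88% of all genes). Their median was −0.15 (−0.01 with RLE scaling). Angpt2, the Tie2 ligand that loosens vessels, stood at 30.9, 14.9 and 12.2 CPM against 6.15, 5.72 and 11.1 CPM (log2 1.34 ± 0.51, adjusted p 0.621). The MCAO mean was 22.96 CPM. Igfbp3, a secreted binding protein of insulin-like growth factors, stood at 17.4, 0.854 and 19.1 CPM against 65.4, 25.9 and 65.7 CPM (log2 −2.07 ± 0.72, adjusted p 0.556).

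In the list of Tie, Notch and ALK receptors with their targets, 14 of 24 were above sham, and the median was 0.22. At an unadjusted p under 0.05, 2 stood higher and 2 lower (2.64% and 3.88% of all genes). Smad7, the inhibitory Smad that dampens TGF-beta signalling, stood at 154.3, 133.7 and 188.3 CPM against 60.2, 65.3 and 68.8 CPM, with no overlap (log2 1.29 ± 0.35, adjusted p 0.399). Hes1, a transcription factor downstream of Notch, stood at 2700, 1332 and 2006 CPM against 725.2, 1186 and 1186 CPM (log2 0.96 ± 0.33, adjusted p 0.556). Endothelial transcription factors had 13 of 20 members above sham and 0 with an unadjusted p under 0.05 in either direction. Their median was 0.15, and that of MCAO against the same sham libraries was −0.46.

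**Figure D3:**
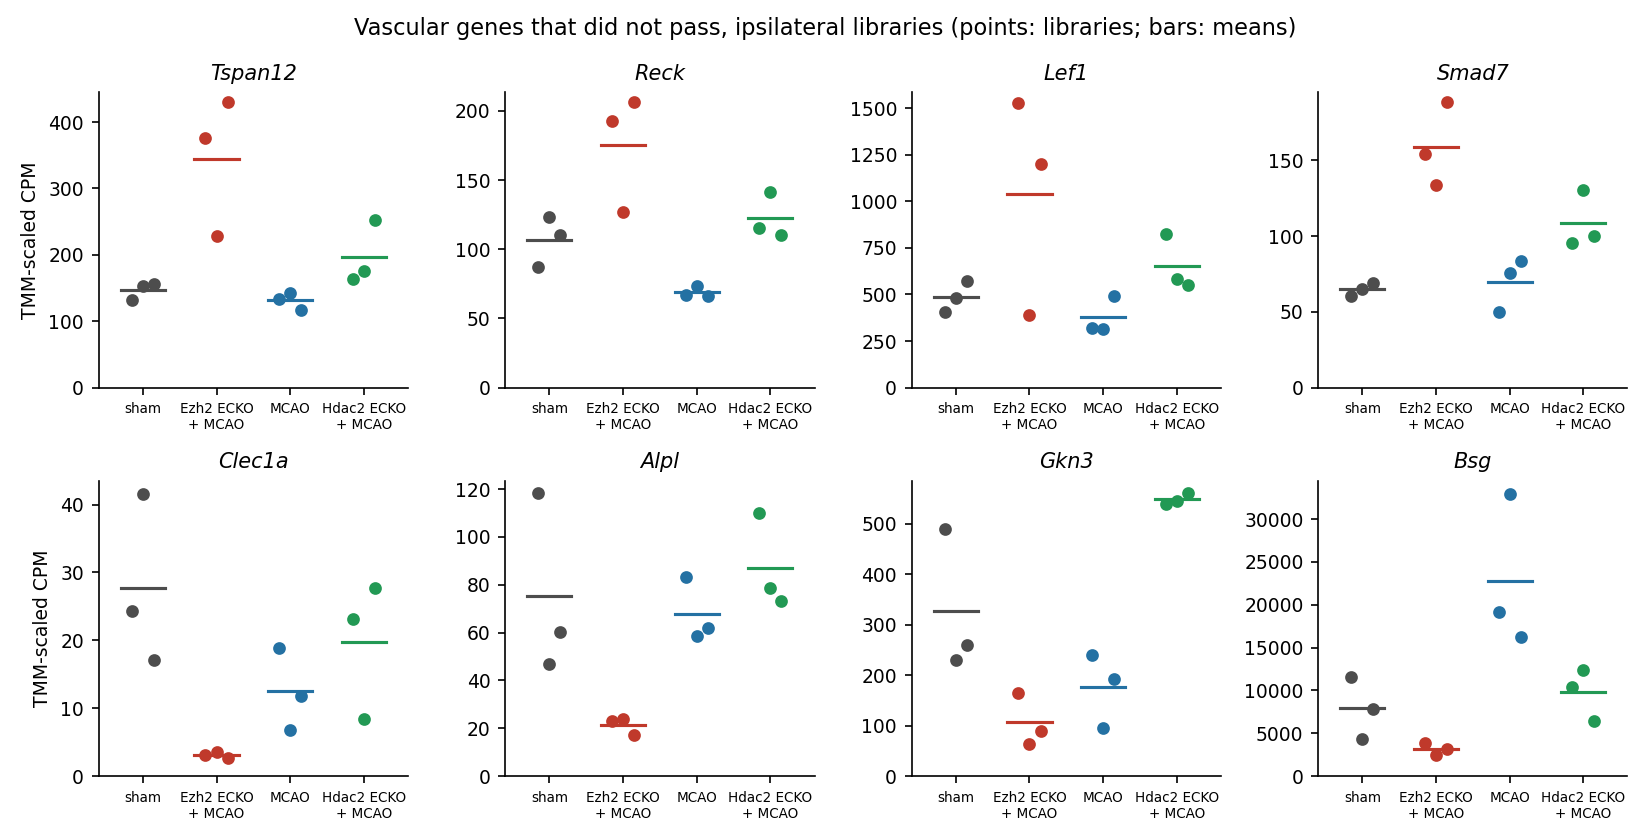
TMM-scaled CPM of 8 vascular genes that were not called against sham, with 1 point per ipsilateral library and a bar at the group mean. Tspan12, Reck and Smad7 lie above sham and Clec1a, Alpl, Gkn3 and Bsg below it in all 3 libraries labelled Ezh2 ECKO, and for Lef1 replicate 2 lies below the sham libraries while the other 2 lie above them.

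The Polycomb machinery gave no call either. Of 11 tested PRC2 subunits, 7 were above sham, 0 had an unadjusted p under 0.05 in either direction, and the median was 0.10. Ezh1, the other methyltransferase of PRC2, stood at 35.9, 27.9 and 8.55 CPM against 43.1, 43.6 and 40.2 CPM (log2 −0.81 ± 0.42, adjusted p 0.799), with replicate 3 labelled Ezh2 ECKO the lowest. Suz12, a core PRC2 subunit, stood at 91.6, 182.7 and 84.7 CPM against 54.3, 102.2 and 79.2 CPM (log2 0.61 ± 0.45). Bmi1, a subunit of the partner complex PRC1, was the 1 of 17 related genes with an unadjusted p under 0.05, at 197.5, 170.4 and 140.8 CPM against 65.8, 147.9 and 74.4 CPM (log2 0.82 ± 0.38, adjusted p 0.752). It was called against MCAO (log2 1.57, adjusted p 0.0474).

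Classic Polycomb targets, such as Hox genes, were for the most part too low to test. Only 12 of 34 listed genes passed the count filter, and none of those 12 had an unadjusted p under 0.05. The smallest p-values belonged to Cdkn2b, an inhibitor of the cell cycle, at 73.1, 30.3 and 22.1 CPM against 24.1, 23.9 and 25.8 CPM, and to Lhx2, a developmental transcription factor, at 0, 1.99 and 0 CPM against 0, 0.238 and 0.107 CPM. For Lhx2 all of the signal on the labelled side came from replicate 2, the library with the highest receptor gene background.

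The medians of 6 stress and inflammatory lists lay near sham and below the MCAO libraries. Heat shock genes, chaperones that keep proteins folded, had a median of −0.18 against sham in the libraries labelled Ezh2 ECKO (−0.07 with RLE scaling, and 0.09 without replicate 2 labelled Ezh2 ECKO). For MCAO against the same sham libraries the median was 1.56. In the direct contrast of the labels, 12 of 15 heat shock genes stood lower at an unadjusted p under 0.05 (10.7% of all genes did), 0 stood higher, and 4 were called lower. Over all genes, 19.2% had an unadjusted p under 0.05 in that contrast, 8.51% higher, and 1.46% were called. Hspb1 stood at 167.8, 80.8 and 115.2 CPM under the Ezh2 ECKO label, 475.7, 158.5 and 349.2 CPM in sham and 1845 ± 1193 CPM in MCAO (SD, n = 3), and its difference from MCAO was −3.93 on the log2 scale (adjusted p 0.0248). Hspa8, Hsp90aa1 and Hsp90ab1 were the others, with log2 differences from MCAO of −2.08, −1.78 and −2.17 and from sham of −0.27, −0.16 and −0.72.

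Acute phase and STAT3 genes had a median of 0.23 against sham, and 1.67 for MCAO; 10 of 21 stood lower than MCAO at an unadjusted p under 0.05 and 2, Lcn2 and Pim3, were called. Lcn2, lipocalin-2, a secreted siderophore-binding protein, stood at 2.32, 0 and 0.0559 CPM against 1.36, 3.34 and 2.78 CPM in sham and 50.5 ± 16.1 CPM in MCAO (SD, n = 3). The counts of genes lower or higher than MCAO that follow use the same unadjusted p. Glycolysis genes had a median of −0.23 against sham (−0.09 with RLE scaling), and 1.03 for MCAO, with 8 of 18 lower than MCAO and Aldoa and Gapdh called. Interferon and MHC class I genes had medians of −0.05 (0.06 with RLE scaling) and 0.97, with 15 of 30 lower than MCAO and Ly6e called. ATF4 and amino acid genes had medians of 0.38 and 1.12, with 4 of 16 lower than MCAO and 0 called by edgeR. Leukocyte adhesion and chemokine genes had medians of 0.10 and 0.34, with 5 of 26 lower than MCAO, 1 higher, and Icam2 and Nfkbia called lower. Immediate early genes, which respond to a stimulus without new protein synthesis, had medians of −0.10 (0.02 with RLE scaling) and −0.33. Over all genes these medians were 0.13 and −0.09. Of 24 immediate early genes, 8 were higher than MCAO and 4 lower, and Ier3 was called lower. Their median in the direct contrast with MCAO was 0.22, close to the 0.17 of all genes.

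Among adhesion, acute phase and interferon genes, single members had an unadjusted p under 0.05 against sham without being called. Ackr1, an atypical chemokine receptor of venules, stood at 27.5, 0.284 and 31.9 CPM against 0.33, 1.98 and 0.963 CPM, with replicate 2 below every sham library and the others above (log2 4.19 ± 1.32, adjusted p 0.485), and MCAO held 53.2 CPM. Scgb3a1, a secreted secretoglobin, showed the same split, at 242, 8.85 and 159.6 CPM against 23.6, 24.5 and 32.4 CPM (adjusted p 0.54). Icam2, an adhesion molecule of resting endothelium, stood at 71.8, 43.0 and 45.6 CPM against 204.7, 96.1 and 125.8 CPM (log2 −1.41 ± 0.60, adjusted p 0.701) and was called against the MCAO mean of 329.6 CPM (adjusted p 0.0426). Bst2, the interferon-induced tetherin, stood at 35.1, 11.6 and 22.5 CPM against 100.2, 46.0 and 89.7 CPM (adjusted p 0.621).

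In all, 250 genes were called between the libraries labelled Ezh2 ECKO and MCAO, 39 higher and 211 lower (119 and 249 with RLE scaling). That number rested on single libraries: it was 24 without replicate 2 and 8 without replicate 3 labelled Ezh2 ECKO, and 5 without MCAO replicate 1 or 2. The calls against MCAO named above come from this contrast and share that limit. In each of those cases 0 heat shock genes were called, while their median stayed between −2.05 and −1.49. MCAO against sham gave 0 called genes by edgeR, with 1210 (7.08%) at an unadjusted p under 0.05. GC content, background reads and the globin share also differed among these libraries, and their part in the difference was not tested beyond the alternatives given at the end.

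**Figure D4:**
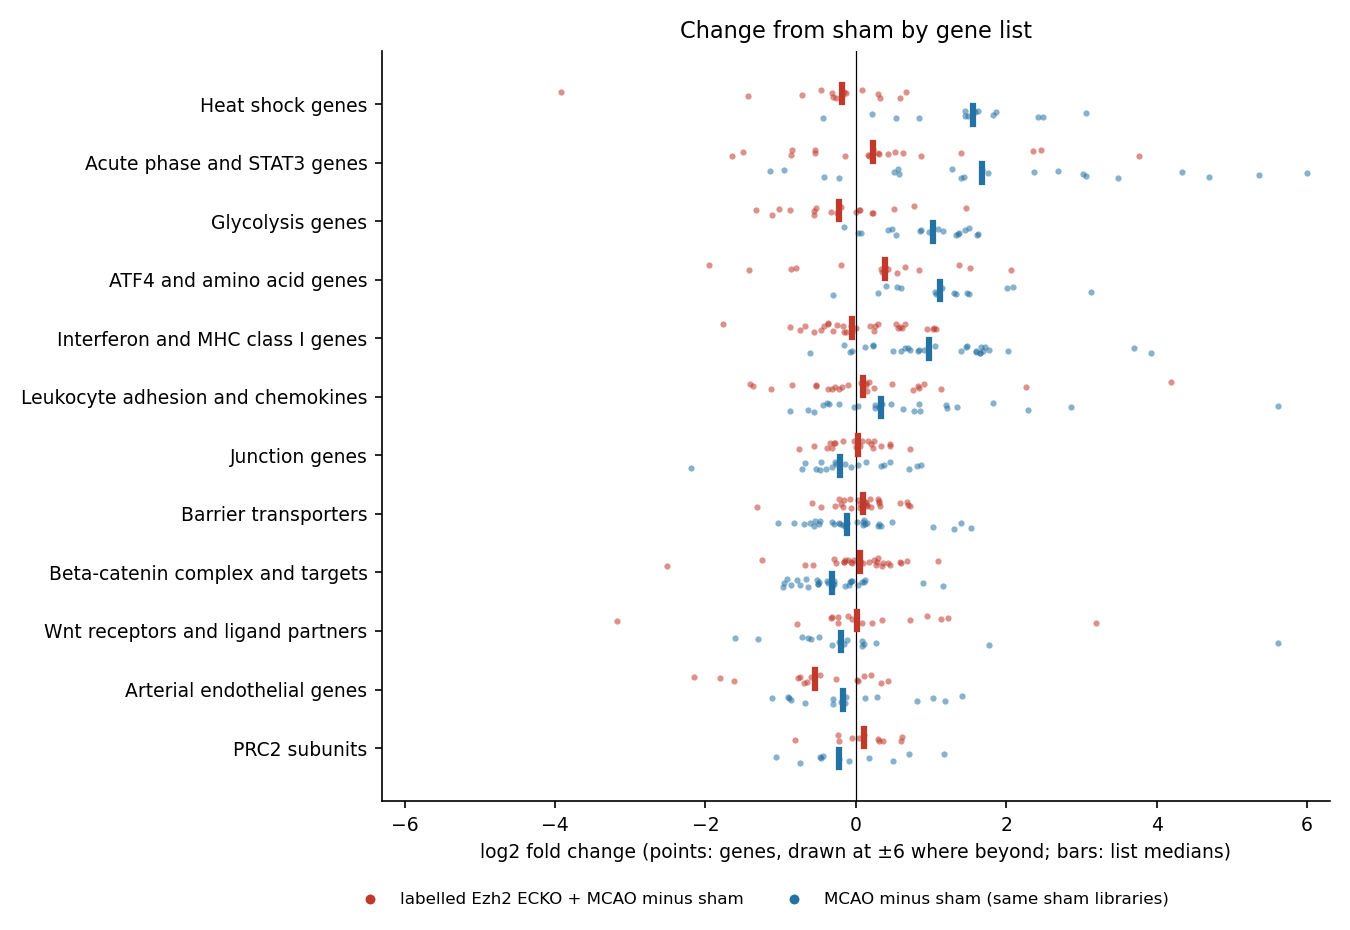
Log2 fold changes from sham of each tested gene (points) in 12 gene lists, for the libraries labelled Ezh2 ECKO (red) and the MCAO libraries (blue), with bars at the list medians and points drawn at ±6 where beyond. Both sets use the same 3 sham libraries. Red medians lie between −0.54 and 0.38, and blue medians reach 1.67.

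Proliferation and matrix genes were mixed. Of 33 cell cycle genes 3 stood higher and 0 lower at an unadjusted p under 0.05 (2.64% and 3.88% of all genes). Their median was −0.07 (0.10 with RLE scaling). Pcna, the sliding clamp of DNA replication, stood at 144.6, 156.6 and 197.2 CPM against 88.7, 102.6 and 97.0 CPM, with no overlap (log2 0.79 ± 0.27, adjusted p 0.54). The others, Rrm2 and Top2a, owed their level to replicate 2 labelled Ezh2 ECKO, at 8.71 and 13.5 CPM against at most 1.19 and 2.6 CPM in the other libraries of that label. Of 30 basement membrane and matrix genes, 13 were above sham, 2 stood higher and 2 lower at an unadjusted p under 0.05, and the median was −0.09 (0.05 with RLE scaling). The higher ones, Sparc and its relative Sparcl1, which encode matricellular proteins, stood above sham in every library, with log2 differences of 0.95 and 0.96 (adjusted p 0.719 and 0.663). The lower ones were Itga5, a fibronectin receptor subunit, and Timp2, an inhibitor of matrix metalloproteinases, with log2 differences of −1.60 and −2.23 (adjusted p 0.752 and 0.722), and the libraries overlapped for Timp2.

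Marker lists show what else the sorted cells could hold. The 14 endothelial markers together took 30920 to 34420 CPM of the unscaled total in the group labelled Ezh2 ECKO and 31770 to 41970 CPM in sham (exact permutation p 0.5), so the labelled cell type was seen in both groups. Smooth muscle markers summed to 28.4, 26.1 and 71.3 CPM against 187, 95.05 and 160.6 CPM, without overlap (exact permutation p 0.1, adjusted 0.286). Low sums were not particular to this label: the MCAO ipsilateral libraries held 28.98 to 104.3 CPM and those labelled Hdac2 ECKO 11.25 to 52.78 CPM. Sham contralateral libraries held 80.37 to 157.9 CPM. Of the 7 smooth muscle markers tested, 0 were above sham and 4 stood lower at an unadjusted p under 0.05 (3.88% of all genes). Acta2, smooth muscle actin, stood at 1.62, 0.569 and 1.96 CPM against 31.9, 8.15 and 27 CPM (edgeR, adjusted p 0.485). Pericyte markers summed to 26.7 to 172 CPM against 114.1 to 136.3 CPM, with overlap, and 2 of 10, Pdgfrb and Vtn, stood lower at an unadjusted p under 0.05. The median log2 differences of the arterial, smooth muscle and pericyte lists were −0.54, −2.71 and −1.26. In MCAO against sham they were −0.17, −1.13 and −0.63. In the libraries labelled Hdac2 ECKO against sham they were 0.72, −2.29 and −2.17, so the arterial list went the other way there. The part of smooth muscle cells and pericytes in the arterial list was not tested.

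Of 10 microglial markers tested, 9 were above sham, 3 stood higher at an unadjusted p under 0.05 (2.64% of all genes), 0 stood lower and 0 were called. This was not particular to the label: 8 were above sham in MCAO and 7 in the libraries labelled Hdac2 ECKO. The median log2 differences from sham were 1.19 under the Ezh2 ECKO label, 2.87 in MCAO and 1.10 under the Hdac2 ECKO label. Csf1r, the receptor that microglia need to survive, overlapped at 5.34, 2.90 and 2.46 CPM against 4.17, 2.03 and 4.68 CPM. Border macrophage and monocyte markers summed to 483 to 535 CPM against 808.5 to 962.1 CPM of the unscaled total (exact permutation p 0.1, adjusted 0.286). That sum rested mainly on Ly6c2, which on the TMM scale stood at 546.4, 350.9 and 454.9 CPM against 767.5, 648.3 and 688.1 CPM and is close in sequence to the endothelial gene Ly6c1, so its reads are uncertain. Astrocyte markers summed to 58.4 to 73.3 CPM against 76.4 to 93.4 CPM, also without overlap. Gene by gene they were split, with 5 of 10 above sham, a median log2 difference of −0.006 and 1 lower at an unadjusted p under 0.05. Ptprc, which encodes CD45, stayed at 0.485, 6.57 and 3.05 CPM against 2.76, 1.36 and 0.937 CPM. Itga2b, which encodes CD41, stood at 29.4, 2.19 and 18.5 CPM against 6.52, 6.67 and 6.37 CPM, so both gating genes overlapped between the groups.

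**Figure D5:**
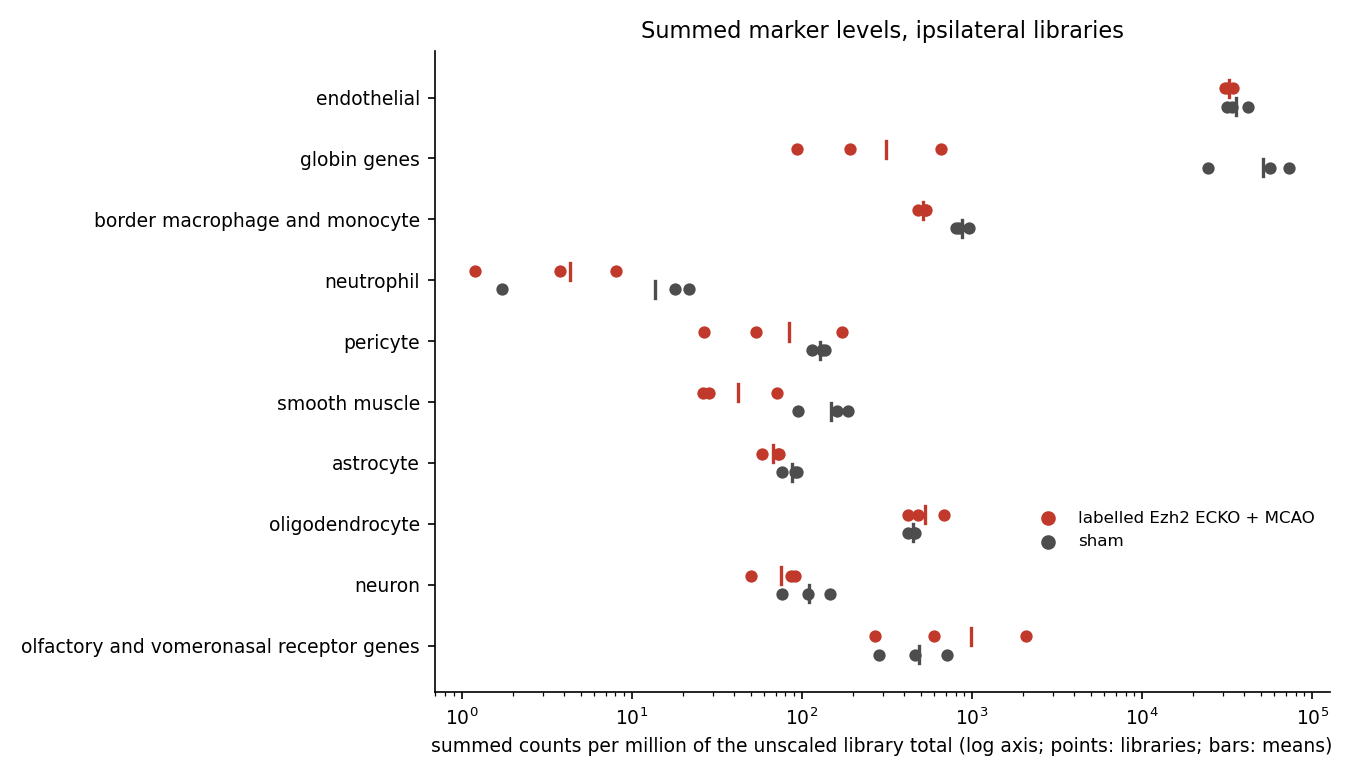
Summed CPM of marker lists, taken of the unscaled library total (log axis), with 1 point per library and a bar at the group mean, for the libraries labelled Ezh2 ECKO (red) and sham (grey). Globin genes are separated by more than any other list drawn, and endothelial markers overlap. Of the lists drawn, the sums of smooth muscle, astrocyte, and border macrophage and monocyte markers are lower in the labelled libraries without overlap. Gene by gene, 5 of 10 astrocyte markers were above sham.

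Against the libraries labelled Hdac2 ECKO, 21 genes (0.123%) were called, 1 higher and 20 lower. They included the 4 globin genes, with log2 differences of −9.14 to −9.56. Tm6sf2, Lipt2, Alpl and Gkn3, described above, were also among them. Hspa1a, an inducible chaperone, stood at a mean of 20.9 CPM under the Ezh2 ECKO label, 17.0 CPM in sham and 208.1 CPM in those labelled Hdac2 ECKO (log2 difference of the labels −3.31, adjusted p 0.03). S100a6, a calcium-binding protein, stood at means of 12.2, 23.8 and 161.4 CPM in the same order (log2 −3.73, adjusted p 0.0127). Hspa1a and S100a6 were chosen after their values were seen. The deposited span of Hspa1a (chromosome 17, 34969190 to 34972156, minus strand) overlaps Gm20481 on the other strand (34969912 to 34972136). Gm20481 was also among the 21 called genes, and reads of this pair may not be separable. Without replicates 1, 2 and 3 labelled Ezh2 ECKO the number was 73, 12 and 9, and without those labelled Hdac2 ECKO 11, 11 and 19. With globin genes left out, 3 genes were called, and the libraries labelled Hdac2 ECKO gave 0 called genes against sham by edgeR, with 1221 (7.14%) at an unadjusted p under 0.05.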

How the data were processed

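The deposited table listed 21638 genes (chromosomes 1 to 19, X) with whole-number counts and had 0 columns of per-sample values left unassigned. Its name calls the values normalized, yet the deposited counts summed to 25791401 to 57576255 per library, 77.3% to 89.4% of low counts were even, and median-ratio factors ran from 0.676 to 1.42, so they were treated as unscaled counts with both mates counted. FastQC, cutadapt, STAR, featureCounts, DESeq2 and build mm10 are named in the submitters' processing notes, with roles, versions, strand setting and annotation not given in the sources used here. Of the symbols, 21442 were found in GENCODE M21, and 21341 of these start 1 base after the deposited start, so deposited coordinates count from 0 and are printed as counted from 1.

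A gene was tested if 3 or more libraries had 10 or more counts (17094 genes). edgeR 4.0.16 (R 4.3.3) fitted 6 group means to all 18 libraries by quasi-likelihood with TMM scaling, at a common biological coefficient of variation of 0.774. Differences from the MCAO libraries and from those labelled Hdac2 ECKO were direct contrasts in that fit. Summed shares were compared by two-sided exact permutation tests. The SE is the log2 fold change divided by the square root of F. Scripts were tested on simulated data. Lower bounds of a fold set the sham mean against the mean floor of 3 counts per library on the TMM scale. These floors (0.0809 to 0.0854 CPM under the Ezh2 ECKO label) and intervals cover counting error only: without molecular identifiers, several reads may stem from 1 molecule. Alternatives were DESeq2 1.42.0, limma 3.58.1 voom with sample weights, RLE and upper quartile scaling, other filters, halved and thinned counts, GC and length trends, a background covariate, other sham controls, tables without globins, a replicate block and each library left out.

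The rule for named genes took Ezh2, genes of smallest p and largest fold change in each direction with no overlap between groups, 1 to 3 genes of each list by p, and of each marker list the called genes or the 2 with the highest level. Fewer than 10 genes were called, so the ranking used an unadjusted p under 0.05. Genes named beyond it are list members called against MCAO or with an unadjusted p under 0.05, chosen after their values were seen. The comparison, the lists and the rule were chosen with earlier results of these data known. Promoter windows were read from a RefSeq table of build GRCm38.p6. Replicate numbers were not taken as pairs. A few results are not reported here.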

Additional observations from a re-analysis of the deposited data

Results flagged for a closer look

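The change from sham differed between the libraries labelled Ezh2 ECKO and the MCAO libraries for 250 genes, by edgeR's direct contrast of the groups with Benjamini-Hochberg adjustment. The same contrast with the libraries labelled Hdac2 ECKO gave 21 genes. Both comparisons use the same sham libraries, which cancel from the difference, and both counts moved with single libraries as given below. Groups of 3 libraries are too small for a check of single values that lie far from the rest of their group.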

How the results depend on the processing

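The count of 7 genes called against sham was 7 with only the 6 libraries, RLE or upper quartile scaling, a filter of 50 counts, halved or thinned counts and the GC or length trend removed (5 of the same genes for GC), and 10 with no low count filter. It was 189 by DESeq2, 11 by voom, 12 with the background covariate, 0 without globin genes, 12 with sham contralateral as control (5 of the same genes), 14 with both sham sides, and 3 to 15 with 1 library left out: 15, 10 and 3 without replicates 1, 2 and 3 labelled Ezh2 ECKO and 4 without each sham library. The 250 genes called against MCAO became 485 with only those 6 libraries, 1642 by DESeq2, 377 by voom, 513 with the filter of 50, 435 with halved counts, 13 with the background covariate, 92 with the GC trend removed, 374 with upper quartile scaling (91 higher, 283 lower), and 5 to 298 with 1 library left out. The 21 called against the libraries labelled Hdac2 ECKO became 659 by DESeq2, 4 by voom, 38 with no low count filter, 32 with the filter of 50, 32 with halved counts, 54 with the background covariate, 3 without globin genes, and 9 to 73 with 1 library left out. The log2 difference of Lhx2 turned from 2.50 to −0.99 by voom, −0.56 with the background covariate and ran from −5.20 (without replicate 2 labelled Ezh2 ECKO) to 3.61 with 1 library left out. In all of these the cause was not tested. With the replicate number as a block, the same 7 genes were called against sham, 12 against MCAO and 9 against the libraries labelled Hdac2 ECKO. Deviations of same-numbered libraries labelled Ezh2 ECKO and sham correlated at 0.132, 0.199 and 0.079. Each library labelled Ezh2 ECKO correlated best with the sham library of its own number. Sham replicate 3, however, correlated better with replicate 1 labelled Ezh2 ECKO (0.115). Own numbers were not best throughout with the MCAO libraries (−0.118, −0.096 and 0.037) or those labelled Hdac2 ECKO (0.14, −0.061 and −0.049). Replicate 2 labelled Ezh2 ECKO reached 0.182 with replicate 3 labelled Hdac2 ECKO, so correlations of this size also joined differing numbers. All 120 summed shares recomputed with 1 library left out moved by less than the spread between libraries. Leaving out 1 of 3 values can hardly move a mean by more than that spread, so this result is no check of stability.

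With 3 libraries a group and a median SE of 0.46, changes well beyond 1 log2 unit could also go uncalled. The smallest called log2 change from sham was 3.28, of Pmaip1, and Alpl at −1.81 was not called. Genes without a call were therefore not shown to be unchanged, and 22 of 34 listed Polycomb targets lay below the count filter. Leaving a library out leaves 2 in its group, which are assumed to vary like the other groups. Values per gene cannot show loss of the floxed Ezh2 exons.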
